A study of Mus musculus with 6 samples.

Results

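The genes described here are 52 protein-coding genes that were expressed in wild-type mouse embryonic fibroblasts (MEFs) and nearly absent from MEFs that lack beta-actin. They were chosen on read counts: at least 100 in each of 3 wild-type (WT) libraries and at most 15 summed over 3 knockout (KO) libraries. Of 21547 protein-coding genes, 10684 had at least 100 counts in every WT library and are called eligible below. Of these, 61 met the KO limit as well, and 9 of the 61 were left out by symbol because they belong to gene families treated separately or carry a clone name (2210016F16Rik, 1700007K13Rik, Tert, Wnt5b, Cyp1a1, Zic1, Zic4, Cdkn1c and Msx1). The remaining 52 are 0.487% of the eligible genes. The same limits applied the other way round, at least 100 counts in each KO library and at most 15 over WT, were met by 12 of 10281 genes (0.117%).

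Both groups were MEFs of the BALB/c strain, with an age of 10.5 days given for the embryos, and both were kept for 6 days in growth medium to which insulin, dexamethasone, IBMX and ascorbic acid had been added, an adipogenic mixture. The WT group had the wild-type genotype and the KO group lacked beta-actin on both alleles, with 3 libraries in each. RNA sequencing of the 6 libraries asks which genes differ between the genotypes under these conditions. No library from before the medium was added was analysed here, so a gene already silent in growing KO cells cannot be told apart from one that was lost during induction. The labels do not say whether the 3 libraries of a group came from separate cultures or embryos, so every p-value below measures only the spread between these libraries.

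Beta-actin forms the filaments of the cell cortex and, in the nucleus, is a subunit of chromatin remodelling complexes. Vertebrate genes that a cell type does not use are commonly held silent by repressive histone marks or, at promoters rich in CpG, by DNA methylation, while neighbouring genes on the same chromosome can remain active. The silenced genes include several best known from neurons, epithelia and the embryonic body plan. Fibroblasts in culture often express such genes at low levels.

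The promoters of 5 silenced genes are printed to show how different the start regions in this set are, from one dense in CpG to one with almost none. Each covers 250 bases before and 50 bases after the start of a RefSeq transcript (GRCm38.p6), 5′ to 3′ on the strand of the gene, with every CpG in capitals. They lie at chr15:89499358-89499657 (plus strand, Shank3 (ENSMUSG00000022623)), chr2:105668646-105668945 (plus strand, Pax6 (ENSMUSG00000027168)), chr13:72628570-72628869 (plus strand, Irx2 (ENSMUSG00000001504)), chr1:194938571-194938870 (plus strand, Cd34 (ENSMUSG00000016494)) and chr1:130940066-130940365 (minus strand, Il19 (ENSMUSG00000016524)).
Shank3: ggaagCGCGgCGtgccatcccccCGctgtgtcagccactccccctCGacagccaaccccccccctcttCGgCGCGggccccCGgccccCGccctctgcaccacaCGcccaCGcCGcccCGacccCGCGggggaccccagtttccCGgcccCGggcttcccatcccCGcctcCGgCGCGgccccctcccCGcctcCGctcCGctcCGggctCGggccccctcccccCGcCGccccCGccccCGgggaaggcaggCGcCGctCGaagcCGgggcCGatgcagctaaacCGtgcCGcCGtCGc
Pax6: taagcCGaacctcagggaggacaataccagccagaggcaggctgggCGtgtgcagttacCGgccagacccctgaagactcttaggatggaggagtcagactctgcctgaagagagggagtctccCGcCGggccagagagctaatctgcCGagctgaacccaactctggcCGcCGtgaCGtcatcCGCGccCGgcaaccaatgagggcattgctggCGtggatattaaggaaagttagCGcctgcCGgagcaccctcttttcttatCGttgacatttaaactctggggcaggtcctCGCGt
Irx2: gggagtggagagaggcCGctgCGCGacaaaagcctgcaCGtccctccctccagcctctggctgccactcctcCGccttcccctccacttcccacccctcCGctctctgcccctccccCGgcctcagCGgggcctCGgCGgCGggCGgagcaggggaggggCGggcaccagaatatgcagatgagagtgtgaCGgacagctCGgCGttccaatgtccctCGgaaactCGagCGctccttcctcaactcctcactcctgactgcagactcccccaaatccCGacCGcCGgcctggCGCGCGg
Cd34: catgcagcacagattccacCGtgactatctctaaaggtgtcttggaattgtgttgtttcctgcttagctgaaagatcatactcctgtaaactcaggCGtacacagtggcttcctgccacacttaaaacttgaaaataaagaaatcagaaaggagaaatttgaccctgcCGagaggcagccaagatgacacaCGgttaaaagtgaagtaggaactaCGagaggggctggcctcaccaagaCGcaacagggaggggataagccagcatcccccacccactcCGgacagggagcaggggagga
Il19: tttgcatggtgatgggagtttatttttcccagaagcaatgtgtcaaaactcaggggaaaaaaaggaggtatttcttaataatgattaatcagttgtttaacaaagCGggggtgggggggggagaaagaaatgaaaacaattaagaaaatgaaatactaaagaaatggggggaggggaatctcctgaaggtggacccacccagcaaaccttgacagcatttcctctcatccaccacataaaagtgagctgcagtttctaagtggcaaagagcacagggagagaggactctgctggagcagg
The Shank3 promoter holds 40 CpG, that of Irx2 25, that of Pax6 18, that of Cd34 7 and that of Il19 1. All 5 genes were expressed in WT and nearly absent from KO, so the silenced genes include both CpG-dense and CpG-poor promoters. A search on both strands found the GC box GGGCGG in the promoters of Shank3 and Irx2. It is present in 35.9% of all 32544 RefSeq promoters of this length and in 69.1% of those of 8515 other eligible genes. CCAAT, present in 37.4% and 39.6%, was found in Pax6 and Irx2. The cAMP response element TGACGTCA, present in 1.80% and 3.48%, was found in Pax6. None of these motifs, nor TATAAA or CACGTG, was found in the windows of Cd34 and Il19. An entry in the RefSeq promoter table was found for 39 of the 52 genes (75%), with 1 to 53 CpG. This is under the 80% taken as the minimum, so a comparison of the promoter composition of the set with other genes is void and none is given. The shares above are background for the 5 printed promoters alone.

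Library totals ran from 26955708 to 38619711 counts. Levels are given as counts or as counts per 1000000 in TMM-scaled libraries (CPM), as mean ± SD over 3 libraries unless stated. As a check of the labels, Actb held 60501, 60582 and 53894 counts in WT replicates 1, 2 and 3 and 276, 1988 and 1850 in KO. Of 15009 genes tested with the edgeR quasi-likelihood test, 2181 were lower in KO (14.5%) and 2074 higher (13.8%) at a Benjamini-Hochberg adjusted p below 0.05. With scaling by library totals, which moved the median of all genes by -0.20 on the log2 scale, the split was 3347 lower and 1351 higher. Without WT replicate 1 the counts were 1418 lower and 1225 higher, without WT replicate 2 1295 and 1003, and without WT replicate 3 1531 and 1294. Without KO replicate 1 they were 3462 lower and 3075 higher. All 52 silenced genes were called lower, which the rule that chose them fixes. Fibroblast markers were measured too. All 15 were tested, and 10 were higher and 0 lower in KO by edgeR. Their summed level was 4388 to 5511 CPM in WT and 10944 to 13365 in KO. The WT sum came mostly from Fn1 (2109 CPM), Sparc (710), Col6a1 (675), Vim (605) and Col1a1 (560). Thy1 had 0, 1 and 0 counts in WT, Col1a2 13, 6 and 9 and Lum 5, 2 and 20, so the WT libraries did not express the whole list. These genes were among those higher in KO. Of 8 smooth muscle markers 7 were higher in KO, with a sum of 104 to 133 CPM in WT and 4743 to 13146 in KO. What part these markers have in the results below was not tested.

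In KO cells the silenced genes were close to 0 but seldom at 0. Rtl6 and Zfp105 had no count in any KO library, 15 genes had 1 to 3 counts over the 3 libraries and 35 had 4 to 15. At least 1 count was found in all 3 KO libraries for 19 genes, in 2 of them for 17 and in 1 alone for 14. Rtl6, of the retrotransposon-derived Gag-like family, had 147, 120 and 108 counts in WT, and with a limit of 3 counts per library it was at least 42.5-fold lower in KO. Zfp105, a zinc finger gene, had 135, 126 and 109 counts in WT and was at least 42.0-fold lower. Both bounds are set by the low WT counts. Across the genes with KO counts, WT levels were 24.8-fold to 1885-fold those of KO, and over all 52, bounds included, the median was 177-fold.

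**Figure D1:**
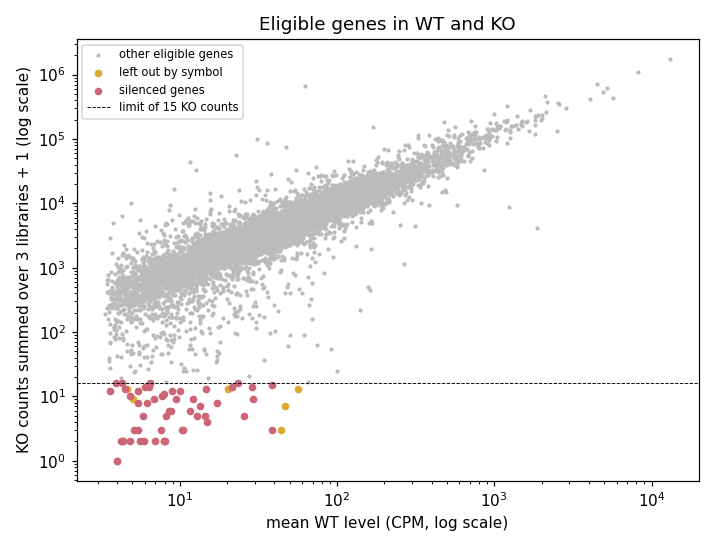
Each point is 1 of the 10684 eligible genes, with the mean WT level in CPM on the x axis and the KO counts summed over 3 libraries plus 1 on the y axis, both on log scales; red points are the 52 silenced genes, yellow points the 9 left out by symbol, and the dashed line the limit of 15 counts. The silenced genes lie below the main band at WT levels from 3.59 to 38.4 CPM, and grey points fill the space between the band and the limit without a gap.

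The silenced genes were the low end of a continuous range, not a separate class. Among all eligible genes, symbols included, 20 had at most 3 KO counts, 61 at most 15, 78 at most 30, 105 at most 50, 162 at most 100 and 391 at most 300. The genes nearest the KO limit show how little divides them. Just inside, Bace2, Lin7a, Tnfsf11 and Ttll9 had 15 KO counts and Sirpa 14. Just outside, Crip1 had 16, Syt7, a calcium sensor of vesicle release, 18, Sept3 20 and Adgrv1 23. At the WT limit, the lowest WT count was 101 for Rgs17 and Tchh, 106 for Slc2a12 and Ston2 and 108 for Rtl6 on the inside. On the outside it was 99 for Cadm2, 96 for Matn4, 95 for Mtrf1, 94 for Mapk13 and 90 for Eml2.

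The residual counts were spread over the 3 KO libraries. Summed over the 52 genes, KO replicates 1, 2 and 3 held 78, 113 and 162 counts, against 16916 to 17892 in the WT libraries. On the CPM scale this was 0.526%, 0.602% and 0.791% of the mean WT sum. Actb CPM in the same libraries was 0.553%, 3.14% and 2.68% of its WT mean. KO replicate 1 had 23 silenced genes at 0, replicate 2 had 20 and replicate 3 had 8. A few genes drew nearly all their KO counts from 1 library. All 12 KO counts of Fam184a came from KO replicate 3, and without that library the gene stands at 0. Lin7a and Tnfsf11 each had 12 of their 15 in KO replicate 3, Wnk2 had 11 of 14 in KO replicate 1 and Sirpa 11 of 14 in KO replicate 2. The samples are bulk RNA, in which fewer cells expressing a gene and less RNA per cell cannot be told apart.

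In WT cells these were genes of low expression. Their median level was 7.85 CPM against 43.8 CPM for the other eligible genes, and 35 of the 52 were under 10 CPM. The rule itself favours low levels. Its KO limit is a fixed count, so a gene with a higher WT level must differ by a larger fold to pass. How much of the low median this accounts for was not tested. Per kilobase of exon, Fam213b (24.8 CPM per kb) and Cthrc1 (24.1) stood far above the rest, with Tmem141 next at 7.84 and Ston2 lowest at 0.288. Their spread between WT libraries was wide: the median coefficient of variation was 13.4%, against 8.27% for other eligible genes and 9.43% for those in the same range of CPM. The genes in that range had a higher median level, 17.9 CPM, so they are not matched in level. Rnf144a varied most (77.4%), then Lin7a (64.2%) and Slc2a12 (48.1%). WT replicate 3 held the highest CPM of 23 silenced genes (44.2%, against 34.2% of other eligible genes). WT replicate 2 held the lowest of 24 of the 52, and of 25.9% of other eligible genes.

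**Figure D2:**
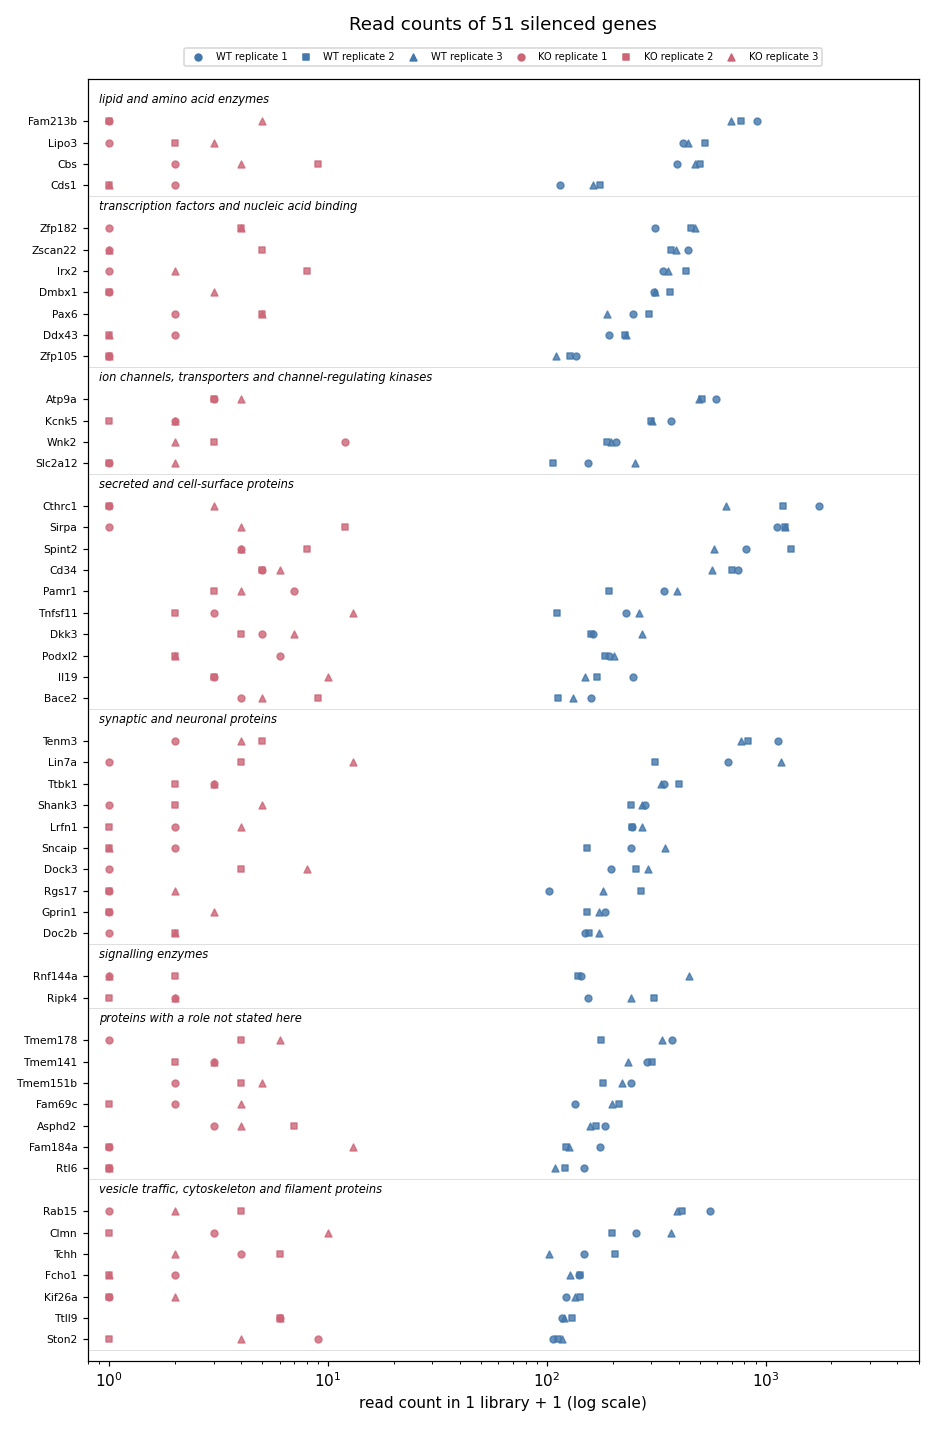
Read count plus 1 in each library, on a log scale, for 51 of the 52 silenced genes, grouped by function; blue marks are WT and red marks KO libraries, and the shape gives the replicate. The highest KO count of any gene is 12 and the lowest WT count 101, a separation that the rule for choosing the genes fixes, and Lin7a, Rnf144a and Cthrc1 show a wide spread within WT.

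The largest groups by function were synaptic and neuronal proteins and secreted or cell-surface proteins, with 10 genes each. The groups were made after the genes were seen, and each gene was put in 1 group. The share of such genes among all eligible genes was not counted, so the group sizes only describe the set. The 10 synaptic and neuronal genes ranged in WT from 5.12 to 29.3 CPM and had 1 to 15 KO counts in all. Tenm3, a teneurin that acts in cell adhesion and the wiring of neurons, was the most abundant, with 1133, 829 and 775 WT counts against 1, 4 and 3 in KO (369-fold). Lin7a, a PDZ protein of cell junctions and synapses, had 669, 311 and 1173 WT counts against 0, 3 and 12 in KO (170-fold). The 3 WT libraries of Lin7a thus differed more than 3-fold among themselves. Ttbk1, a tau-tubulin kinase of the brain, had 344, 403 and 332 WT counts against 2, 1 and 2 in KO (218-fold). Shank3, a scaffold of the postsynaptic density whose CpG-dense promoter is printed above, had 280, 241 and 271 WT counts against 0, 1 and 4 in KO (184-fold). Lrfn1, a synaptic adhesion molecule with leucine-rich repeats, had 244, 243 and 272 WT counts against 1, 0 and 3 in KO. For these 3 genes the WT libraries lay close together and the KO libraries were at 0 to 4 counts. Sncaip, the synuclein-binding protein synphilin, had 242, 151 and 347 WT counts against 1, 0 and 0 in KO. Dock3, an activator of Rac in neurons, had 195, 255 and 288 WT counts against 0, 3 and 7 in KO. Rgs17, a regulator of G protein signalling, had 101, 269 and 179 WT counts against 0, 0 and 1 in KO, a ratio of 572 with a 95% exact counting interval from 102 to 22624. Gprin1 and Doc2b, an effector of neurite growth and a calcium sensor of vesicle release, had 2 KO counts each. Neural and glial markers were also measured. Of 12, 5 were tested, 3 were higher in KO and 0 lower by edgeR, and their sum was 108 to 132 CPM in WT and 210 to 243 in KO.

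Of the 10 secreted and cell-surface genes, several encode factors that act on bone, epithelium or immune cells. Cthrc1, a secreted protein of wound repair and bone, had 1756, 1203 and 661 WT counts against 0, 0 and 2 in KO. Its ratio of summed counts was the largest of all at 1885, with a 95% exact counting interval from 521 to 15571. Sirpa, the receptor for CD47 that restrains phagocytosis, had 1130, 1220 and 1222 WT counts against 0, 11 and 3 in KO (282-fold). These were the silenced genes with the highest WT CPM, at 38.4 ± 16.4 and 38.4 ± 2.87 (SD, n = 3), and the spread of Cthrc1 between WT libraries was by far the wider. Spint2, an inhibitor of serine proteases best known from epithelia, had 811, 1300 and 581 WT counts against 3, 7 and 3 in KO (214-fold). Cd34, a sialomucin of blood stem cells, vessels and fibroblast progenitors, had 744, 698 and 566 WT counts against 4, 4 and 5 in KO (159-fold). Pamr1, a secreted protein of muscle regeneration, had 341, 191 and 391 WT counts against 6, 2 and 3 in KO. All 3 KO libraries kept a few counts of these 3 genes. Markers of other cell types were measured beside these genes. Of 10 endothelial markers, which could accompany Cd34, 5 were tested by edgeR, 0 were higher and 1 lower in KO, with a sum of 3.61 to 5.07 CPM in WT and 2.37 to 3.79 in KO. The lower one was Vwf, with 34, 41 and 33 WT counts against 12, 6 and 20 in KO (log2 fold change -1.56, edgeR adjusted p = 0.0286, a call lost without each WT library and without KO replicate 2), and Cldn5 was at 0 in every library. Of 12 macrophage markers 3 were tested, 0 were higher and 1 lower, with a sum of 8.71 to 21.2 CPM in WT and 3.50 to 15.9 in KO. The lower one was Fcer1g, with 15, 24 and 16 WT counts against 1, 3 and 0 in KO (-3.71, edgeR adjusted p = 0.0064), and Tyrobp, C1qb and C1qc were at 0 throughout. Of 10 epithelial markers, which could accompany Spint2, 3 were tested, 2 were higher and 1 lower, and the sum was 5.44 to 10.5 CPM in WT and 30.5 to 50.9 in KO. The keratins Krt19 and Krt18 were the higher ones, with log2 fold changes of 2.66 and 5.52 (edgeR adjusted p = 0.00197 and 0.000875). Epcam, an adhesion molecule of epithelia, was the lower one, with 34, 48 and 45 WT counts and none in KO (edgeR adjusted p = 0.000994). Cdh1 and Esrp1, too low to be tested, had 29 and 13 counts over WT and 6 and 3 over KO. The part of these cell types in the results was not tested.

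The other genes of this group had lower WT levels. Tnfsf11, the osteoclast-inducing ligand RANKL, had 228, 110 and 263 WT counts against 2, 1 and 12 in KO. Dkk3, a secreted protein of the Dickkopf family of Wnt antagonists, had 162, 158 and 270 WT counts against 4, 3 and 6 in KO. Il19, a cytokine of the interleukin-10 family with the CpG-poor promoter above, had 247, 168 and 148 WT counts against 2, 2 and 9 in KO. The differences of these 3 genes, 45.2-fold, 47.7-fold and 47.6-fold, were among the smaller ones of the set. Bace2, an aspartyl protease related to beta-secretase, had 159, 111 and 131 WT counts against 3, 8 and 4 in KO, and at 28.1-fold was among the least reduced. Podxl2, a sialomucin that binds selectins, had 191, 183 and 202 WT counts against 5, 1 and 1 in KO.

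Transcription factors and other nucleic acid binding proteins made up 7 genes with 3.96 to 13.3 CPM in WT and 0 to 9 KO counts. Pax6, the paired-domain factor of eye and forebrain development, had 247, 291 and 187 WT counts against 1, 4 and 4 in KO (87.6-fold). Irx2, an Iroquois homeodomain factor of limb, heart and neural patterning, had 339, 433 and 357 WT counts against 0, 7 and 1 in KO (155-fold). Dmbx1, a homeodomain factor of the embryonic midbrain, had 307, 363 and 311 WT counts against 0, 0 and 2 in KO. Each WT library held at least 187 counts of each of the 3 factors, and each KO library fewer than 10. Zfp182, an X-linked zinc finger gene, had 312, 454 and 473 WT counts against 0, 3 and 3 in KO, and Zscan22 had 442, 367 and 389 WT counts against 0, 4 and 0 in KO. Ddx43, a helicase of the DEAD-box family known from germ cells, had 192, 227 and 230 WT counts against 1, 0 and 0 in KO.

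The developmental transcription factors as a list moved in both directions. Of 101 list genes 69 were tested by edgeR, 14 were higher and 18 lower in KO, Irx2 and Pax6 among the lower, with a median log2 fold change of -0.00334 against 0.0099 over all tested genes. Without KO replicate 1, 28 were lower, where the lower count of all tested genes rose from 2181 to 3462. Tbx20, a T-box factor of the heart, fell to 4.24 ± 0.976 from 50.5 ± 6.43 CPM (log2 fold change -3.58, adjusted p = 7.7e-05), and Lhx2, a LIM homeodomain factor, had a log2 fold change of -2.97 (adjusted p = 0.000114). Lmx1b had 102, 88 and 88 counts in WT and none in KO, so it missed only the WT limit. In the other direction Gata3 rose by 1.34 and Emx2 by 2.08 on the log2 scale (edgeR adjusted p = 0.00123 and 0.00151). Of 365 genes named Zfp, 326 were tested, 28 were higher and 42 lower in KO, Zfp105 and Zfp182 among the lower. The counts of that list moved with single libraries, as did those of all tested genes. The lower count became 21 without WT replicate 2, 26 without WT replicate 3 and 69 without KO replicate 1. Over all tested genes it went from 2181 to 1295, 1531 and 3462. The higher count of the list became 15 without WT replicate 1 or WT replicate 2 and 46 without KO replicate 1. Over all tested genes it went from 2074 to 1225, 1003 and 3075. Zfp13 had a log2 fold change of -5.12 (adjusted p = 7.1e-05) and Zfp979 of 3.89 (adjusted p = 0.000533).

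Among ion channels, transporters and the kinases that regulate them, 5 genes were silenced. Atp9a, a phospholipid flippase of endosomes, had 592, 513 and 495 WT counts against 2, 2 and 3 in KO (238-fold). Kcnk5, a potassium leak channel, had 370, 297 and 300 WT counts against 1, 0 and 1 in KO, a ratio of 504 with a 95% exact counting interval from 139 to 4164. In both genes the WT libraries were within a narrow range. Slc2a12, a facilitative glucose transporter, had 153, 106 and 252 WT counts against 0, 0 and 1 in KO. It shares 9.61% of its exon bases with Tbpl1 on the opposite strand, which had 6691 counts over the WT and 4327 over the KO libraries. In the KO libraries that held those 4327 counts of Tbpl1, Slc2a12 had 1 count. Wnk2, a kinase that controls chloride transport, had 206, 188 and 196 WT counts against 11, 2 and 1 in KO.

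On the lists these genes belong to, more members were lower than higher. Of 251 ion channel subunits 105 were tested by edgeR, 30 were lower in KO, Kcnk5 included, and 18 higher, with a median log2 fold change of -0.15. Hcn2, a pacemaker channel, had a log2 fold change of -3.39 (adjusted p = 0.000315), and Kcnh2, a cardiac potassium channel, of 3.33 (adjusted p = 0.000115). Of 361 solute carriers 235 were tested, 54 were lower, Slc2a12 included, and 21 higher, with a median of -0.12. The higher count became 10, 9 and 12 on leaving out the 3 WT libraries in turn, 40 on leaving out KO replicate 1 and 32 by DESeq2. Over all tested genes it went, in the same order, from 2074 to 1225, 1003, 1294, 3075 and 2648. Slc38a4, an amino acid transporter, fell by 5.98 on the log2 scale (edgeR adjusted p = 7.9e-06) and Slc16a3, a lactate exporter, by 5.31 (adjusted p = 0.000129), while the iron exporter Slc40a1 rose by 3.24 (adjusted p = 0.000533). Of 104 adhesion genes of the immunoglobulin, claudin and leucine-rich repeat kinds, 40 were tested, 11 were lower, Lrfn1 included, and 6 higher (13 higher without KO replicate 1). Amigo2 had a log2 fold change of -3.37 (adjusted p = 0.000114) and Ncam1 of 0.86 (adjusted p = 0.00387). Against 14.5% of all tested genes lower, the shares lower were 26.1% of developmental factors, 12.9% of Zfp genes, 28.6% of ion channels and 27.5% of adhesion genes, with 54 of 235 solute carriers. These shares include the silenced genes, whose call the rule fixes. Lists without a silenced gene ran from 0% of fibroblast markers and 7.14% of Polycomb subunits to 48.3% of p53 targets and 53.5% of interferon response genes. A high share lower was thus not particular to the lists that hold a silenced gene.

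The enzymes were 4 genes of lipid, sulfur and redox metabolism. Fam213b, a prostamide and prostaglandin F synthase, had 916, 772 and 694 WT counts against 0, 0 and 4 in KO (703-fold). Cbs, cystathionine beta-synthase of the transsulfuration pathway, had 394, 500 and 474 WT counts against 1, 8 and 3 in KO (124-fold). Cds1, a CDP-diacylglycerol synthase of phospholipid synthesis, had 114, 174 and 162 WT counts against 1, 0 and 0 in KO. Of these 3, Cbs alone kept counts in each KO library. Lipo3, a lipase-like gene, had 419, 528 and 442 WT counts against 0, 1 and 2 in KO. It belongs to a cluster of similar genes, so reads may have been split or lost among its copies and its values are uncertain.

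Vesicle traffic, cytoskeletal and filament proteins accounted for 7 genes with 3.59 to 14.5 CPM in WT. Rab15, a small GTPase of endosomal recycling, had 555, 412 and 392 WT counts against 0, 3 and 1 in KO (376-fold). Clmn, an actin-binding membrane protein, had 255, 197 and 368 WT counts against 2, 0 and 9 in KO (83.3-fold). Fcho1, which starts clathrin-coated pits, had 140, 141 and 126 WT counts against 1, 0 and 0 in KO. The WT libraries of Fcho1 varied least of all silenced genes, with a coefficient of variation of 2.16%. Kif26a, a kinesin-like protein, had 121, 141 and 134 WT counts against 0, 0 and 1 in KO, and Ston2, an adaptor of synaptic vesicle endocytosis, had 106, 112 and 116 WT counts against 8, 0 and 3 in KO. Ttll9, of the tubulin ligase-like family, had 116, 129 and 119 WT counts and exactly 5 in each KO library, the smallest difference of the set at 24.8-fold. Tchh, the trichohyalin of hair follicles, had 147, 205 and 101 WT counts against 3, 5 and 1 in KO. Of the signalling enzymes, Ripk4, a kinase needed for epidermal differentiation, had 153, 307 and 242 WT counts against 1, 0 and 1 in KO. Rnf144a, a ubiquitin ligase, had 142, 138 and 446 WT counts against 0, 1 and 0 in KO, so that its WT mean owes much to WT replicate 3. The 7 genes with no role given here (Tmem178, Tmem141, Tmem151b, Fam69c, Asphd2, Fam184a and Rtl6) had 4.01 to 9.52 CPM in WT and 0 to 12 KO counts.

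Each silenced gene was set beside its relatives, defined as protein-coding genes with the same symbol stem. Most relatives that the same cells expressed were not called in either direction. In 38 families there were 145 relatives, of which 56 in 26 families were eligible. Of these 56, edgeR called 12 lower (21.4%, against 14.2% of eligible genes), 5 higher and 39 in neither direction, with a median log2 fold change of -0.06. Leaving out WT replicate 1, 2 or 3 gave 7, 5 or 7 lower, and leaving out KO replicate 3 gave 7. Over all tested genes the lower count went, in the same order, from 2181 to 1418, 1295, 1531 and 1610. Among eligible genes that are not silenced, the share lower went from 13.8% to 8.1%, 6.99%, 9.06% and 9.33%. Leaving out WT replicate 2 gave 3 relatives higher, and leaving out KO replicate 1 gave 9. Over all tested genes the higher count went from 2074 to 1003 and 3075. In 23 families a relative had a higher WT level per kilobase of exon than the silenced gene. Bace1 had 74.8 CPM in WT and 76.1 in KO (log2 fold change 0.03 ± 0.18 SE), while Bace2 was nearly absent from KO. Lin7c, with 29.5 CPM per kb in WT against 7.09 for Lin7a, had a log2 fold change of -0.05 ± 0.15, and Cds2 of 0.26 ± 0.27. Ston1, Fcho2, Atp9b, Ttbk2 and Wnk1 were likewise not called, with log2 fold changes of 0.18, 0.42, -0.28, -0.16 and -0.06.

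**Figure D3:**
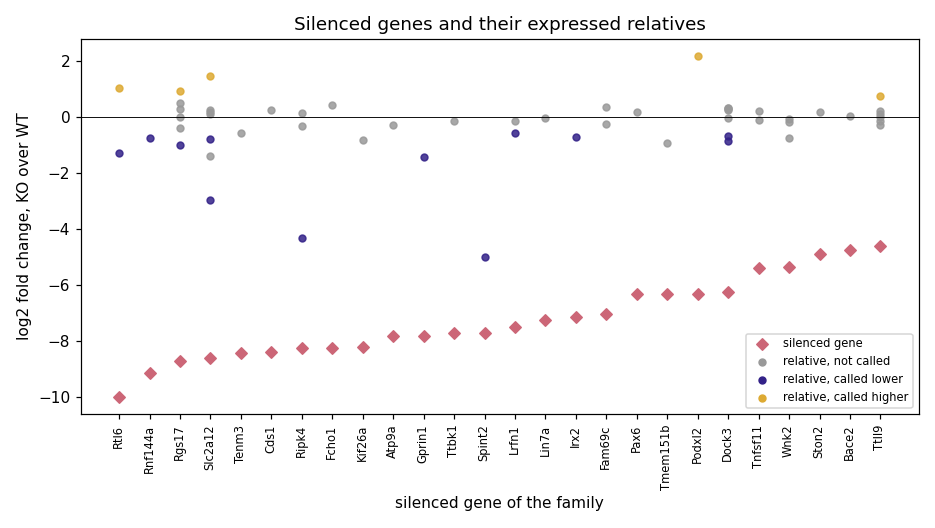
Log2 fold change, KO over WT, of the silenced gene (red diamonds) and of its 56 eligible relatives (circles) in the 26 families that have one, ordered by the silenced gene; dark circles were called lower by edgeR, yellow circles higher and grey circles neither. Most relatives lie near 0, and Spint1, Ripk3 and Slc2a9 are the 3 that lie below -2.

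A few relatives were reduced together with the silenced gene. Spint1, the second Kunitz-type inhibitor of epithelial proteases, had 422, 606 and 349 WT counts against 7, 10 and 28 in KO (log2 fold change -5.01 ± 0.51 SE, edgeR adjusted p = 0.000308). Ripk3, the kinase of necroptosis, had 1277, 1169 and 776 WT counts against 28, 75 and 66 in KO (-4.33 ± 0.37, edgeR adjusted p = 0.00014). Slc2a9, a urate transporter, had 232, 349 and 133 WT counts against 9, 48 and 40 in KO (-2.97 ± 0.72, edgeR adjusted p = 0.00587), and Gprin3 fell by 1.43 (adjusted p = 0.0034). In the first 3 of these the highest KO library was below the lowest WT library. The other 8 eligible relatives called lower, Rtl10, Rgs9, Dock9, Slc2a6, Rnf144b, Irx5, Dock5 and Lrfn3, changed by -1.30 to -0.56. Of these, Dock5 alone was called with every library left out in turn, and Rtl10 lost its call only without WT replicate 2. Among relatives with fewer than 100 counts in at least 1 WT library, Irx1 had 29, 15 and 10 counts in WT and none in KO (at least 6.07-fold lower), Shank1 18, 24 and 32 WT counts against 0, 2 and 0 in KO, Fam213a 107, 34 and 60 WT counts against 0, 4 and 4 in KO, and Rgs4 127, 87 and 167 WT counts against 0, 1 and 5 in KO. Relatives called higher included Podxl, the kin of Podxl2, from 12.1 ± 0.653 to 54.4 ± 2.40 CPM (log2 fold change 2.17, edgeR adjusted p = 6.4e-05), and Slc2a1, the ubiquitous glucose transporter, with a log2 fold change of 1.45 (adjusted p = 0.0014). Irx3 rose by 1.58 (adjusted p = 0.00483) from 39, 34 and 38 counts in WT to 119, 103 and 119 in KO, so that within the Iroquois family Irx1, Irx2 and Irx5 were lower and Irx3 higher. The call of Irx5 (-0.72, adjusted p = 0.0359) was lost without each WT library and without KO replicates 2 and 3.

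Along the chromosomes the silenced genes were scattered. They lay on every chromosome but Y, with 1 to 6 on each. Chromosome 2 had 6, and chromosomes 7 and 12 had 5 each, where an equal share of the eligible genes would put 4.17, 3.62 and 1.77. Chromosome 11, the richest in eligible genes with 908, had 1, Doc2b, against 4.42 at an equal share.

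**Figure D4:**
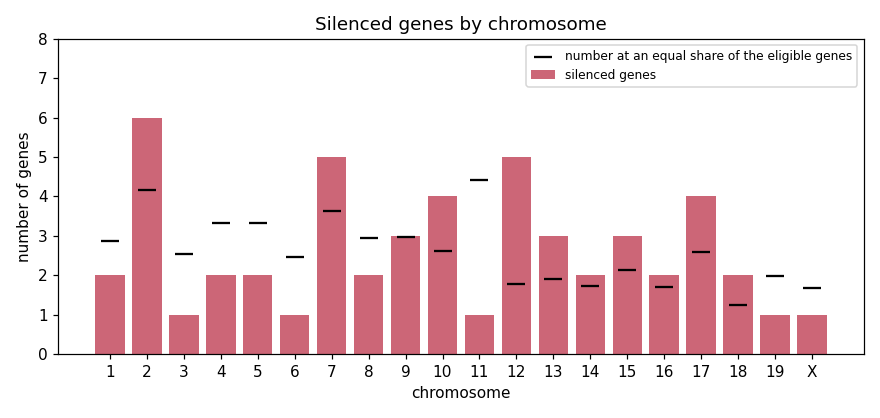
Number of silenced genes on each chromosome (bars) and the number that an equal share of the eligible genes would give (black dashes). Bars range from 1 to 6, with chromosome 12 highest above its dash (5 against 1.77) and chromosome 11 lowest below it (1 against 4.42).

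Only 1 pair of silenced genes formed a run, meaning 2 or more with no eligible gene above 15 KO counts between them. Bace2 (ENSMUSG00000040605), at chr16:97356742-97442936 on the plus strand of GRCm38, and Ripk4 (ENSMUSG00000005251), at chr16:97741933-97763787 on the minus strand, start 385191 bases apart. The protein-coding genes between them were hardly expressed in either group: Mx1 had 10 counts over WT and 10 over KO, Fam3b 2 and 2, and Tmprss2 1 and 1. The next eligible genes outside the pair were not called by edgeR. Wrb, 1198889 bases to the left, had a log2 fold change of -0.05 ± 0.26 SE and Prdm15, 27679 bases to the right, of -0.16 ± 0.07. The pair depends on the limit for KO counts. Without KO replicate 1 or without KO replicate 3, with the limit scaled to 10 counts over 2 libraries, Bace2 with 12 and 11 counts was no longer inside and no run was left. Counting the genes left out by symbol added the neighbours Zic1 and Zic4 on chromosome 9 as another run.

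By distance, 6 of the 52 genes (11.5%) had another silenced gene starting within 1 Mb, and 762 of 10632 other eligible genes (7.17%) had a silenced gene that near. Within 0.5 Mb the shares were 3.85% and 3.89%, and within 2 Mb they were 6 of 52 and 1280 of 10632 genes, so which share was higher changed with the window. The 2 further pairs were Lrfn1 and Spint2 on chromosome 7, starting 0.804 Mb apart with 14 eligible genes between them, and Tmem151b and Ttbk1 on chromosome 17, 0.900 Mb apart with 20 between them. Of those 14, edgeR called Ech1 lower (-1.52) and Spred3 higher (0.89). Of the 20, it called Nfkbie (-1.68), Dlk2 (-1.73) and Lrrc73 (-0.70) lower and Mrpl14 higher (0.50). The calls of Spred3, Lrrc73 and Mrpl14 were lost under some alternatives, for Spred3 without WT replicate 1 or 2 or KO replicate 3. Most genes inside both intervals were thus not called, and neither pair was a block of reduced expression. With no symbol left out, 10 genes had another within 1 Mb. Those added were Zic1 and Zic4 on chromosome 9, and Irx2 with Tert on chromosome 13, which start at 72628820 and 73626911. Irx1, which missed the WT limit and had no KO count, starts at 71957921 on the same chromosome 13.

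The nearest expressed genes on either side of the silenced genes showed mostly small differences in both directions. There were 102 such genes besides the Bace2 and Ripk4 pair, with a median log2 fold change of -0.02, and 85 of them (83.3%) lay between -1 and 1. By edgeR 18 were lower (17.6%) and 18 higher (17.6%), against 13.8% lower and 13.4% higher of the other eligible genes. Of the 48 that lay within 50 kb, 13 were lower (27.1%) and 5 higher (10.4%), with a median of -0.21. These counts moved with single libraries. Leaving out WT replicate 1, 2 or 3 gave 7, 7 or 8 lower of the 48 within 50 kb. Of the other eligible genes 8.1%, 6.99% or 9.06% were then lower. Without KO replicate 3 it was 8 of the 48, with 9.33% of the others. In each of these cases the share of the 48 was above that of the others, a difference that was not tested. Over all 102, leaving out WT replicate 1 or WT replicate 2 gave 11 lower, and leaving out KO replicate 1 gave 33, where 23.6% of the others were lower. With scaling by library totals 28 were lower, again with 23.6% of the others.

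**Figure D5:**
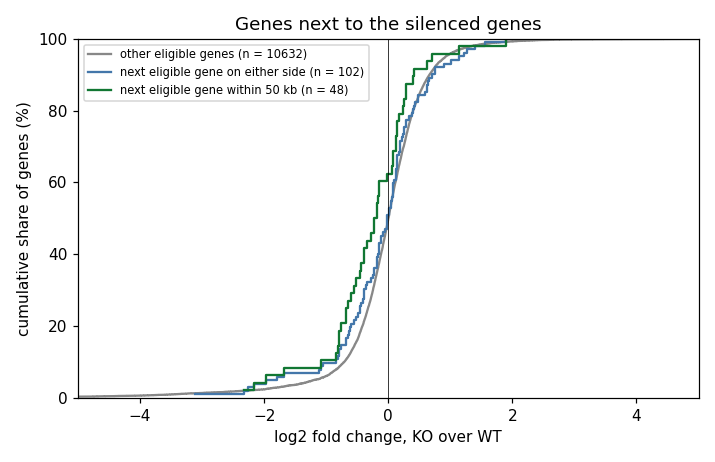
Cumulative share of genes, in percent, against log2 fold change, KO over WT, for the 102 next eligible genes, the 48 of them within 50 kb and 10632 other eligible genes (all eligible genes that are not silenced). The line of the 102 next genes follows that of the other genes closely at a median of -0.02, and that of the 48 nearest lies to the left of it at a median of -0.21.

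Neighbours with large differences were few, and 1 of the 102 was at or below a log2 fold change of -3. Man1a, a mannosidase of N-glycan trimming 153661 bases to the right of Fam184a, had 1456, 1499 and 1599 WT counts against 129, 231 and 189 in KO (-3.12 ± 0.17 SE, edgeR adjusted p = 7.6e-05). Slc1a2, a glutamate transporter 15617 bases from Pamr1, had 110, 137 and 134 WT counts against 17, 25 and 38 in KO (-2.33 ± 0.23, edgeR adjusted p = 0.00132), and Trim44 on the other side of Pamr1 fell by 1.79 (adjusted p = 0.00692). Zkscan7, 24453 bases from Zfp105, had 117, 122 and 115 WT counts against 19, 33 and 31 in KO (-2.16 ± 0.13, edgeR adjusted p = 0.00101). These genes were reduced together with the silenced gene beside them. Others went the opposite way. Ppp1r14a, an inhibitor of myosin phosphatase 7395 bases from Spint2, rose by 1.89 (adjusted p = 0.00147), and Cyb5a, next to Fam69c, by 1.40 (adjusted p = 0.000465). Elp4, 3662 bases from the end of Pax6, fell by 0.79 (adjusted p = 0.0443), a call lost without each WT library and without KO replicate 3. Pdrg1, 407 bases from Ttll9, fell by 0.84 (adjusted p = 0.00187).

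Noncoding transcripts that start near a silenced gene were few and mostly unexpressed. The clearest was Gm20554, a long noncoding RNA on the opposite strand whose start lies 256 bases from that of Irx2. It had 14, 19 and 29 WT counts against 0, 1 and 0 in KO (log2 fold change -5.57, edgeR adjusted p = 0.00222), so both transcripts on either side of the Irx2 promoter printed above were nearly absent from KO. D030046N08Rik, opposite Fam69c, had 9, 13 and 4 counts in WT and none in KO, and Gm12339, opposite Doc2b, 6, 3 and 3 in WT and none. Exon bases were shared with another gene by 12 silenced genes, for 4 of them over 10% of their exons (Fam69c 24.5%, Podxl2 19.1%, Ddx43 15.9% and Tmem151b 15.1%). The strand setting of the counting is not given in the sources used here, so reads of such pairs cannot be told apart. The partners of those 4 had at most 26 counts over the WT libraries.

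In gene structure the medians of the silenced genes lay near those of other expressed genes. The exon length had a median of 4.73 kb in both sets. The gene span had a median of 31.5 kb against 25.3 kb for other eligible genes, and ranged from 1.94 kb (Tmem141) to 616 kb (Tenm3). The GC content of the longest transcript had a median of 51.3% against 49.7%. Against other eligible genes in the same range of WT CPM, the medians were 4.41 kb of exon, 23.2 kb of span and 49.9% GC.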

How the data were processed

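Gene expression was measured in 3 WT and 3 KO libraries, prepared with a TruSeq RNA kit per the labels' protocols. Each library has 1 file of unnormalized counts per Ensembl gene, deposited by the authors. TopHat2 2.1.0, HTSeq and DESeq2, with build GRCm38.p4, are given as tools per the submitters' processing notes. The strand setting is not given in the sources used here. Of 46603 identifiers, 46005 matched GENCODE M21 (GRCm38), which gave symbols, biotypes, positions and exons.

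The silenced genes, the gene lists, the function groups and the families were chosen with earlier results of these data known, and the function groups and families after the silenced genes were seen. The comparison of KO with WT chose the silenced genes, so no p-value is given for them. Silenced genes were named if they were among the 25 with the highest WT CPM, in a run, on a list or nearest a limit of the rule, and the others by function group or as examples chosen after their values were seen. Relatives and neighbours were named after their values were seen. On each list that holds a silenced gene, up to 3 called genes with the smallest p in each direction could be named. Results of 3 genes that these rules take are not reported here.

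Counts were filtered with filterByExpr, scaled by TMM and tested in R 4.3.3 with edgeR 4.0.16 (quasi-likelihood F test, two-sided, group as the only term, Benjamini-Hochberg adjustment over 15009 genes, called below 0.05). The procedure was tested on simulated data. Log2 fold changes are KO over WT. Folds of silenced genes are ratios of mean CPM, ratios of summed counts with a 95% exact interval where KO held 1 to 3 counts, or lower bounds from 3 counts per library (0.0816 to 0.113 CPM in KO) where it held none. Intervals and bounds cover counting error only. Alternatives used DESeq2 1.42.0, limma-voom 3.58.1, other scalings, filters and limits, the replicate number as a block, and each library left out. Relatives and neighbours were put through these alternatives after the data were seen.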

Additional observations from a re-analysis of the deposited data

How the results depend on the processing

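The 52 silenced genes were called lower by each tool, scaling, filter and left-out library tried, with fitted log2 fold changes below -4 throughout. Their number depends on the limits: 93 with at least 50 counts in each WT library, 20 with at least 200, and 25 with at most 5 KO counts, and 45 to 57 with 1 library left out. The genes in runs numbered 2, and 4 with at least 50 WT counts, with no symbol left out or with the genes left out by symbol counted. They numbered 0 with at least 200 WT counts or at most 5 KO counts, and 0 to 2 with 1 library left out. Silenced genes with another within 1 Mb numbered 6, and 12 with at least 50 WT counts, 2 with at least 200, 0 with at most 5 KO counts, 10 with no symbol left out and 4 to 6 with 1 library left out. Within 0.5 Mb there were 2. Over all genes, scaling by library totals gave 1351 higher and 3347 lower. Leaving out 1 library gave 1003 to 3075 higher and 1295 to 3462 lower. With the replicate block, 1446 were higher and 1599 lower. Whether the replicate numbers pair the libraries is not known here. Within-group deviations of KO and WT libraries with the same number correlated at -0.0887, 0.0379 and -0.124 across genes. These values show no strong shared effect on expression, but they cannot show whether such libraries were prepared together. The block cost the calls of Irx5, Lrfn3, Rnf144b and Rtl5 among the relatives and of Elp4, Lrrc73, Mrpl14 and Vwf among the other genes named here. No called gene changed direction, while the share of silenced genes with another near was above that of other eligible genes at 1 Mb and below it at 0.5 and 2 Mb. At these depths 3 counts, the limit that a count of 0 allows, are 0.0816 to 0.113 CPM in KO, so differences below that were not detectable.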
